A study of Mus musculus with 30 samples.

Results

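The genes described here are 10 interferon-inducible GTPases of the guanylate-binding protein (GBP) and immunity-related GTPase (IRG) families, taken by symbol from a gene count table of mouse bone marrow derived macrophages. The GBPs are Gbp2, Gbp3, Gbp5, Gbp6 and Gbp7, and the IRGs are Irgm1, Irgm2, Igtp, Iigp1 and Ifi47. All 10 are present among the 30538 genes of the table and all 10 passed the filter on low counts. The study set untreated cells against cells exposed to 3 compounds that its title groups as inhibitors of OSBP, a sterol carrier protein. 25HC is 25-hydroxycholesterol, the product of the enzyme Ch25h, itraconazole is an azole antifungal drug, and OSW-1 is a steroidal saponin from plants.

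There are 10 groups of 3 libraries, each from mice numbered 1, 2 and 3 within a genotype. Wild-type (C57BL/6) macrophages were left untreated or given 25HC at 5 µM, itraconazole at 1 µM or OSW-1 at 0.3 µM for 18 h, and were harvested unstimulated or after 18 h with 10 ng/mL LPS, a bacterial cell wall component. Untreated Ch25h-/- macrophages were harvested unstimulated and after the same LPS exposure. By their labels, LPS groups had 18 h of stimulation where unstimulated groups had 0 h. Compound groups likewise had 18 h of pretreatment where untreated groups had 0 h. The labels do not give total culture time. Any difference in that time cannot be told apart from LPS or from the compounds. No vehicle is named for the untreated cells, and it is not stated whether the compounds stayed on during LPS.

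GBPs and IRGs are large GTPases that cells make in response to interferons. They collect on the membranes of vacuoles that hold bacteria or parasites, where effector IRGs such as Iigp1 and Ifi47 bind GTP and damage the vacuole. The regulatory IRGs Irgm1, Irgm2 and Igtp sit on the cell's own membranes and keep the effectors inactive there. GBPs expose bacterial LPS to the inflammatory caspase Casp4 (caspase-11), and several of them, Gbp2 among them, are anchored in membranes through a prenyl lipid. In macrophages, LPS induces the families through interferon beta made by the cell itself.

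The short stretches below are shown because they hold the letters through which interferon-activated factors can bind, and because they are alike across the families. A RefSeq promoter window (GRCm38.p6, 250 bases before to 50 bases after the start site) was found for 8 of the 10 symbols, all but Gbp6 and Iigp1. The core of the interferon-stimulated response element (ISRE), searched as GAAA, any 2 bases and GAAA on both strands, was in 7 of these 8. It was in 3.99% of all 27025 genes with windows of the same length. Capitals mark the match, which on the promoter's strand can read as its reverse complement, and each stretch is 30 bases long, written 5′ to 3′ along the gene.
Gbp2 (chr3:142620594-142620623, plus strand): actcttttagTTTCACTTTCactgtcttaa
Gbp3 (chr3:142559989-142560018, plus strand): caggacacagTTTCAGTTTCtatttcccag
Gbp5 (chr3:142496759-142496788, plus strand): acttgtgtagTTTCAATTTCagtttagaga
Gbp7 (chr3:142530273-142530302, plus strand): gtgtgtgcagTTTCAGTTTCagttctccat
Irgm1 (chr11:48871431-48871460, minus strand): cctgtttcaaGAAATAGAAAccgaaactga
Irgm2 (chr11:58214903-58214932, plus strand): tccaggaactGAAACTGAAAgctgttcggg
Igtp (chr11:58199512-58199541, plus strand): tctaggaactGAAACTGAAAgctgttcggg

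Gbp3 and Irgm1 each had a further match that overlaps the one shown, which made 9 matches in all. Their first bases lay between 24 and 165 bases upstream of the start site. The Igtp and Irgm2 stretches carry the same core and the same flank after it. The window of Ifi47 held no match to these letters, which says nothing of the factors that act there. The gamma-activated sequence (GAS), the other interferon response motif, was searched as TTCNNNGAA, which is its own reverse complement. It was found for 4 of the 8 members with a window (Gbp5, Gbp7, Igtp and Irgm2). It was in 9.55% of all genes, and no GAS match overlapped an ISRE match. The GAS matches of Igtp and Irgm2 stand just before their ISRE, here with capitals marking the GAS.
Igtp (chr11:58199501-58199529, plus strand): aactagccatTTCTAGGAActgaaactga
Irgm2 (chr11:58214892-58214920, plus strand): aactagccatTTCCAGGAActgaaactga
These matches are descriptions of sequence and not measurements of binding.

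Most members lie in clusters of related genes, which bears on what their counts hold. In GENCODE vM21 (GRCm38), Gbp2 (chr3:142620602-142638008), Gbp3 (chr3:142560026-142573209) and Gbp7 (chr3:142530342-142550149) are neighbours on the plus strand. Irgm2 (chr11:58199618-58222782) and Igtp (chr11:58199556-58207591) overlap on the plus strand, with 162 exon bases in common, 8.01% of the exon bases of Igtp. Gbp7 shared 11.3% of its exon bases with Gm43802, which was not counted separately. Ifi47 shared 8.77% with Olfr56 and Gm12188. Irgm1 (chr11:48861968-48871683, minus strand) and Ifi47 (chr11:49076587-49096974, plus strand) are also on chromosome 11, and Iigp1 is on chromosome 18. All 10 loci are annotated as protein-coding, and the counts are summed over a gene's exons and not split by exon, intron or UTR.

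Symbols and identifiers part company for Gbp5 and Gbp6. The identifier in the Gbp5 row (ENSMUSG00000040264) is the neighbouring paralog Gbp2b in GENCODE vM21 (chr3:142594847-142619179). The identifier in the Gbp6 row (ENSMUSG00000079362) is Gm43302 on chromosome 5 (chr5:105214907-105293695, minus strand), and 81.6% of its exon bases are shared with Gbp10 and Gbp6, which have no row of their own in the table. These 2 genes are therefore named only as labelled, their counts may belong to those paralogs, and the Gbp5 promoter above may not belong to the gene counted. Of the 50-base stretches in a member's transcripts, 100% were also in transcripts of other genes for the Gbp6 row, 12.7% for Gbp7 and 11.8% for Igtp. For the other 7 members the share was between 0.310% (Irgm1) and 7.77% (Irgm2).

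Library totals ran from 23656860 to 43922154 counts. Every count is even in 20 libraries. Odd counts occur as well in the other 10, which are the 3 OSW-1 libraries with LPS, the 6 from Ch25h-/- mice and mouse 3 of unstimulated 25HC. This difference in counting coincides with the genotype and with the OSW-1 and LPS group, and it cannot be told apart from them. Ch25h counts were 94, 86 and 46 in untreated wild-type and 7, 0 and 2 in untreated Ch25h-/- libraries. All 8 macrophage markers were detected, with a summed level of 9881 to 36148 CPM (counts scaled to a common library size) in every library. Summed levels were at most 17.2 CPM for 8 neutrophil markers, 1.96 CPM for 6 dendritic cell markers, 2.59 CPM for 7 T and NK cell markers (Gzma at 0 throughout), 11.8 CPM for 5 B cell markers and 23.9 CPM for 6 stromal markers.

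In untreated wild-type macrophages LPS raised all 10 genes, and 30.7% of the 13173 genes tested were called higher in that comparison. A gene is called where edgeR's quasi-likelihood test gave a Benjamini-Hochberg adjusted p under 0.05 over all genes tested. Values with ± after a log2 fold change are standard errors, and values with ± after a level are SDs, with 3 mice in a group. The median log2 fold change was 2.71 over the 10 members and -0.01 over all genes tested. No LPS library of any member overlapped an unstimulated one, and 30.6% of all genes showed that separation upward. Summed macrophage markers were at 17632 to 22335 CPM without and 24816 to 36148 CPM with LPS, neutrophil markers at 1.75 to 5.42 and 6.42 to 12.8 CPM, and stromal markers at 1.61 to 3.28 and 5.41 to 11.5 CPM. These 3 lists were higher with LPS without overlap, and their part in the rise was not tested. By family the median was 4.09 for the GBPs (2.14 to 4.98) and 1.61 for the IRGs (1.04 to 3.31).

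Gbp2 was at 36.5, 44.6 and 47.9 CPM in mice 1, 2 and 3 without LPS and at 903, 839 and 447 CPM with LPS. Every LPS library was far above every unstimulated one, and mouse 3 was the lowest of the LPS libraries. The log2 fold change was 4.09 ± 0.30 (17-fold, adjusted p = 2.91e-11). The row labelled Gbp5 went from 5.72, 6.93 and 13.6 CPM to 211, 225 and 118 CPM, without overlap (4.41 ± 0.43). The row labelled Gbp6 rose most, from 3.97, 4.64 and 6.13 CPM to 155, 184 and 123 CPM (4.98 ± 0.30, or 31.5-fold).

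Gbp3 rose by 3.28 ± 0.33 and Gbp7 by 2.14 ± 0.26. Gbp7 was at 36.4 ± 8.55 CPM in unstimulated cells and reached 160 ± 30.4 CPM. Among the IRGs, the effector Iigp1 went from 5.06, 7.30 and 17.8 CPM to 81.4, 115 and 100 CPM. The groups did not overlap, and the mouse 3 library stood well above the other unstimulated ones. The log2 fold change of Iigp1 was 3.31 ± 0.37 (9.90-fold, adjusted p = 4.79e-08), and it was 4.01 without that library. The regulatory IRGs moved less: Irgm1 rose by 1.27 ± 0.15, Irgm2 by 1.04 ± 0.17 and Igtp by 1.92 ± 0.20. Ifi47 rose by 1.61 ± 0.18.

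Levels of different genes were compared only per kilobase of exon, for the 8 members whose identifier fits the symbol. In untreated unstimulated cells Ifi47 (28.3 ± 4.53 CPM per kilobase), Irgm1 (26.3 ± 2.42) and Irgm2 (21.3 ± 2.65) were highest, and Iigp1 was lowest at 1.73 ± 1.17. With LPS the order changed, and Gbp2 led at 290 ± 98.0, ahead of Ifi47 at 86.2 ± 12.1 and Igtp at 71.7 ± 5.11. Gbp3 (66.0 ± 19.9) and Irgm1 (63.3 ± 5.49) lay within their SDs of each other, and Iigp1 was again lowest, at 16.9 ± 2.86. Ifi47 and the 3 regulatory IRGs thus had higher means than any of the 3 GBPs compared at rest, though Gbp2 (17.1 ± 2.33) lay within the SDs of Irgm2 and of Igtp (18.9 ± 3.01). With LPS Gbp2 had the highest mean.

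**Figure D1:**
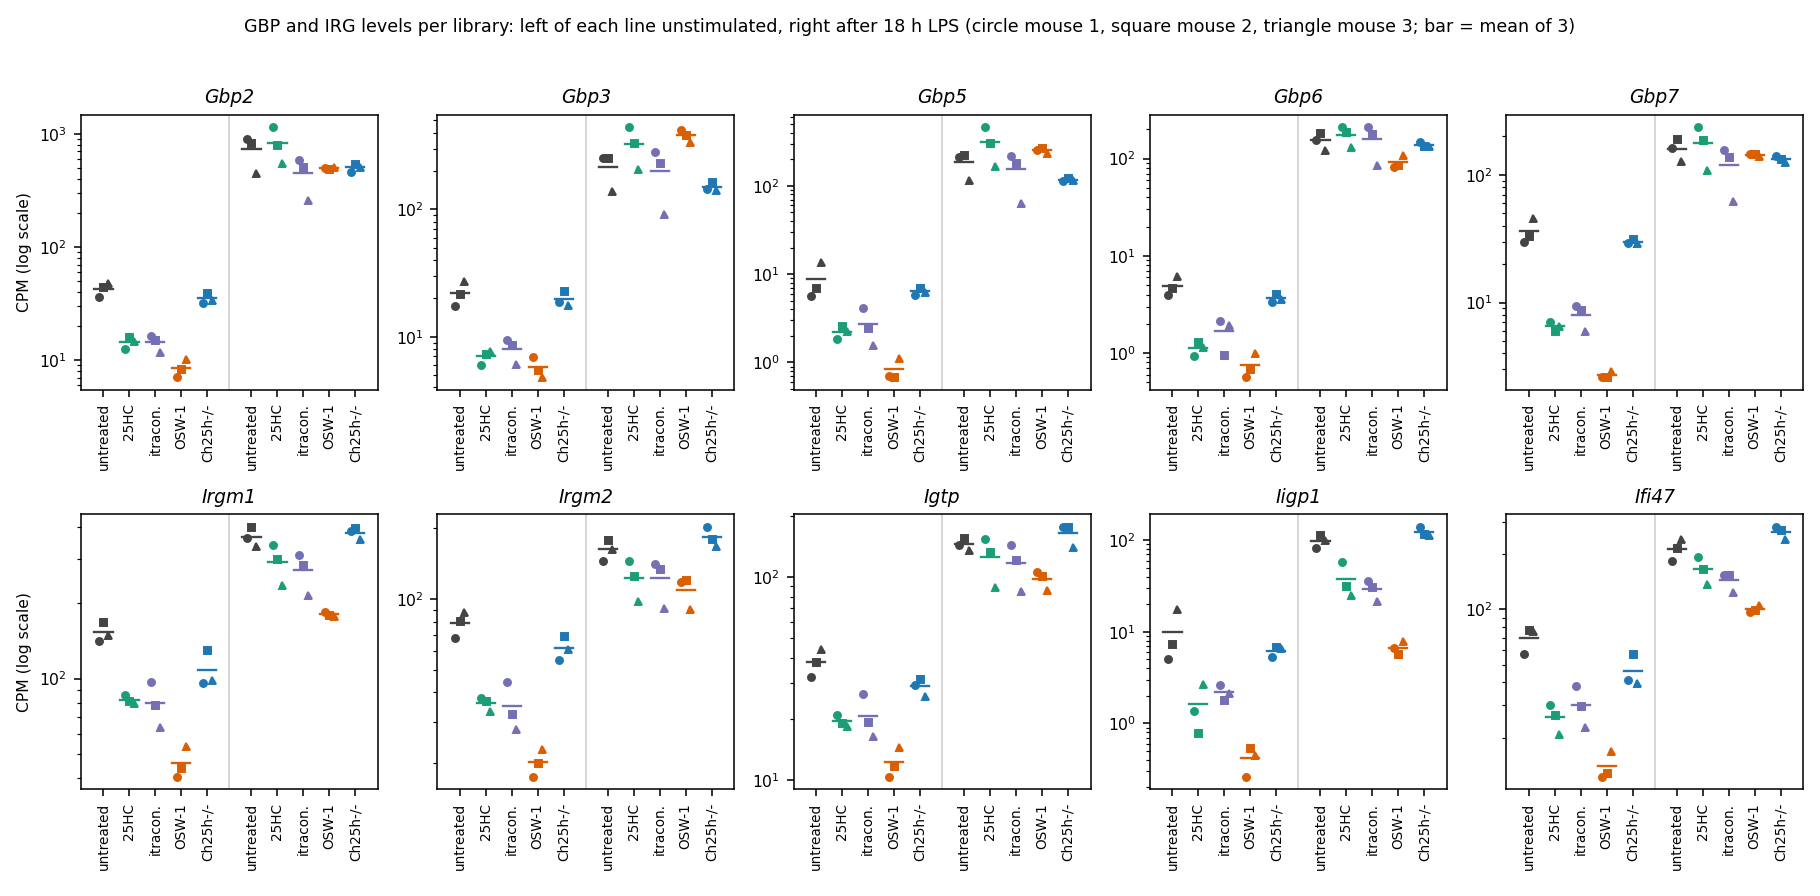
Level of each member in every library, in CPM on a log axis, by group. Symbols mark the mouse, bars the mean of 3 libraries, and the vertical line separates unstimulated groups (left) from LPS groups (right). Gbp5 and Gbp6 are shown as labelled in the table. Compound groups lie below untreated cells on the left for all 10 genes. On the right Iigp1 in OSW-1 cells stays between 5.65 and 7.84 CPM.

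In unstimulated cells all 3 compounds lowered all 10 genes. With 25HC 12.8% of the genes tested were called lower, with itraconazole 12.3% and with OSW-1 17.2%. The 3 comparisons share the untreated libraries and are therefore not independent of each other. The median log2 fold change of the members was -1.62 with 25HC, -1.49 with itraconazole and -2.33 with OSW-1, where the medians over all genes were 0.01, 0.00 and 0.00. The lowest untreated library lay above the highest library of each compound for every member. The share of all genes whose groups did not overlap in this direction was 22.6, 23.5 and 26.1%. In such bulk libraries, fewer cells that express a gene and less RNA per cell cannot be told apart.

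Gbp7 showed the steepest fall of the GBPs with each compound. It was at 29.9, 33.2 and 46.1 CPM in untreated cells, at 7.07, 6.02 and 6.59 CPM with 25HC and at 9.40, 8.71 and 5.97 CPM with itraconazole. OSW-1 libraries held 2.61, 2.64 and 2.91 CPM, the lowest and the tightest of the 4 groups. The log2 fold changes were -2.47 ± 0.28, -2.18 ± 0.27 and -3.74 ± 0.30 (adjusted p = 8.70e-07, 4.79e-06 and 2.68e-09). Gbp2, the highest with LPS of the GBPs compared per kilobase, fell by 1.57 ± 0.28, 1.57 ± 0.27 and 2.33 ± 0.28 on the log2 scale. Gbp3 fell by 1.67 ± 0.33, 1.47 ± 0.32 and 1.94 ± 0.33.

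The row labelled Gbp5 was at 1.87, 2.59 and 2.26 CPM with 25HC, at 4.13, 2.46 and 1.56 CPM with itraconazole and at 0.697, 0.683 and 1.12 CPM with OSW-1. All 9 libraries lay under the lowest untreated one, at 5.72 CPM. The log2 fold changes were -1.96 ± 0.46, -1.67 ± 0.44 and -3.39 ± 0.52. Its itraconazole call depended on 1 library: without the untreated mouse 3 the change was -1.21 (adjusted p = 0.0773). The row labelled Gbp6 fell by 2.12 ± 0.35, 1.52 ± 0.32 and 2.72 ± 0.36.

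Iigp1 fell furthest of the 10 genes with OSW-1. With 25HC it did so over all libraries, but without the untreated mouse 3 the fall of Gbp7 (-2.26) was larger than that of Iigp1 (-1.95). Its levels were 1.37, 0.787 and 2.70 CPM with 25HC, 2.61, 1.79 and 2.15 CPM with itraconazole and 0.261, 0.537 and 0.448 CPM with OSW-1. The highest of these 9 libraries was still below the lowest untreated library, at 5.06 CPM. The log2 fold changes were -2.64 ± 0.42, -2.18 ± 0.40 and -4.59 ± 0.51, which makes the OSW-1 group 24.1-fold lower. Without the untreated mouse 3 library they were -1.95, -1.49 and -3.90, and all 3 stayed called.

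Ifi47 fell by 1.43 ± 0.18 with 25HC, 1.21 ± 0.18 with itraconazole and 2.32 ± 0.19 with OSW-1. The 3 regulatory IRGs showed the smallest changes with 25HC. Irgm1 was at 141, 168 and 149 CPM in untreated cells, and at 40.6, 44.2 and 53.7 CPM with OSW-1, without overlap. It changed by -0.89 ± 0.15, -0.94 ± 0.15 and -1.73 ± 0.15. Irgm2 changed by -1.13 ± 0.17, -1.17 ± 0.17 and -1.96 ± 0.18, and Igtp by -0.97 ± 0.20, -0.88 ± 0.19 and -1.65 ± 0.20.

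The 5 B cell markers, summed, were at 8.49 to 11.3 CPM in untreated unstimulated libraries and at 4.23 to 5.67 CPM in those with a compound. The 7 T and NK cell markers measured, summed, were at 0.104 to 0.189 CPM in untreated and at 0.450 to 2.59 CPM in compound libraries. Macrophage markers overlapped between these groups, at 17632 to 22335 CPM untreated and 19017 to 21689 CPM with a compound. The part of other cells in the fall of the GBPs and IRGs was not tested.

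The doses differ between the compounds (5, 1 and 0.3 µM), so differences between them hold only for these concentrations. OSW-1 against 25HC lowered 4 of 10 members in unstimulated cells, where 1.29% of all genes were called lower. The 4 were Gbp7 (-1.27 ± 0.31), Irgm1 (-0.83 ± 0.15), Irgm2 (-0.83 ± 0.18) and Ifi47 (-0.88 ± 0.19). Irgm1 alone stayed called whichever of the 6 libraries was left out. Gbp7 lost its call without any 1 of them (-1.33 to -1.21, adjusted p = 0.0512 to 0.111). Irgm2 and Ifi47 lost theirs without 25HC mouse 1 (-0.79 and -0.76), OSW-1 mouse 1 (-0.74 and -0.80) or OSW-1 mouse 2 (-0.83 and -0.82).

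Against itraconazole, OSW-1 lowered 6 of 10 members, and 2.73% of all genes. These were Gbp7 (-1.56 ± 0.30), Irgm1 (-0.79 ± 0.15), Irgm2 (-0.79 ± 0.18), Igtp (-0.77 ± 0.20), Iigp1 (-2.41 ± 0.57) and Ifi47 (-1.11 ± 0.19). Gbp7, Irgm1 and Ifi47 kept their calls in every leave-out. Without OSW-1 mouse 1 or itraconazole mouse 1, Irgm2 (-0.70 and -0.58), Igtp (-0.66 and -0.55) and Iigp1 (-2.14 and -2.26) lost theirs, and Igtp also without mouse 2 of either group (-0.74 and -0.81). No difference between 25HC and itraconazole was called for any member by edgeR (0 called, 0 with an unadjusted p under 0.05, 0 by DESeq2, with 0.235% of all genes called). The 95% intervals of that difference still ran as wide as -1.38 to 0.45 for Iigp1 and -1.36 to 0.15 for the row labelled Gbp6, and were narrowest for Irgm1 (-0.25 to 0.34).

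**Figure D2:**
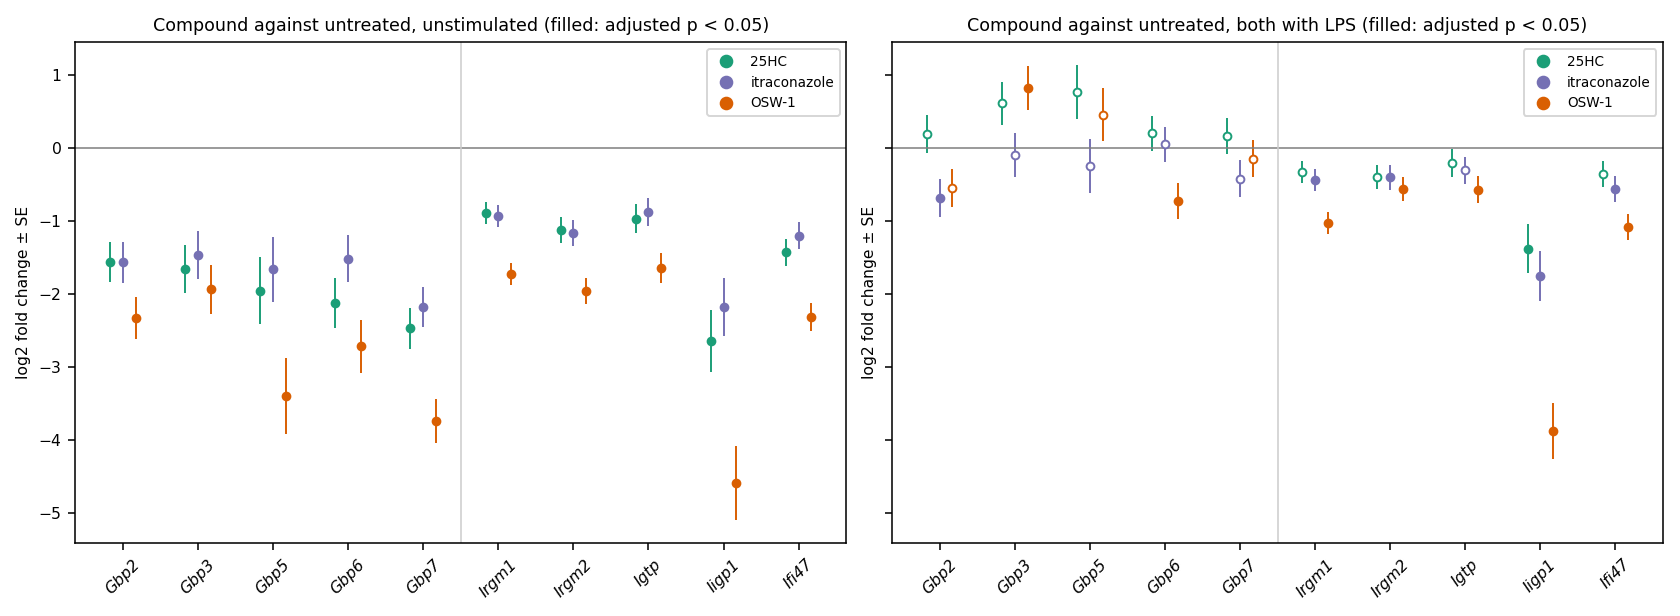
Log2 fold change with standard error of each member for 25HC, itraconazole and OSW-1 against untreated cells, unstimulated (left) and with LPS (right). Filled points have an adjusted p under 0.05. All 30 points on the left are filled and below 0. On the right 12 of the 15 GBP points are open, and Iigp1 is called lower with all 3 compounds.

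With LPS the calls differed by compound. Of the 5 GBPs, 25HC changed 0, itraconazole lowered 1 and OSW-1 raised 1 and lowered 1. Of the 5 IRGs, 25HC lowered 1, itraconazole 4 and OSW-1 5, and Iigp1 had the largest fall with each compound. The families were not tested against each other. In the direct comparison of 25HC with itraconazole under LPS, 0 IRGs were called by edgeR and 0 had an unadjusted p under 0.05. With 25HC 1 of 10 members was called, lower, where 21% of all genes were. With itraconazole 5 of 10 were lower, where 27.9% of all genes were. With OSW-1 6 were lower and 1 higher, where 37% of all genes were lower and 34.3% higher. The groups did not overlap for 2 members with 25HC and 4 with itraconazole, all lower, and for 6 lower and 2 higher members with OSW-1. Over all genes such separation was seen downward in 22.1, 25.9 and 35.9%, and upward with OSW-1 in 34.5%. The single member called with 25HC is below the share of all genes. The median log2 fold changes of the GBPs were 0.20, -0.25 and -0.15, and those of the IRGs were -0.37, -0.45 and -1.03.

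Iigp1 was at 81.4, 115 and 100 CPM in untreated cells with LPS. It was at 57.2, 31.3 and 25.0 CPM with 25HC, at 35.5, 30.8 and 21.8 CPM with itraconazole and at 6.62, 5.65 and 7.84 CPM with OSW-1. No compound library reached the lowest untreated one, and the OSW-1 libraries lay in the range of untreated cells that never met LPS (5.06 to 17.8 CPM). The log2 fold changes were -1.38 ± 0.34 with 25HC (adjusted p = 0.00227), -1.75 ± 0.34 with itraconazole (adjusted p = 0.000166) and -3.88 ± 0.39 with OSW-1 (14.7-fold lower, adjusted p = 4.10e-09). These 3 calls held whichever library was left out. Iigp1 in OSW-1 cells was also lower than with 25HC (-2.49 ± 0.37) and than with itraconazole (-2.13 ± 0.37).

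Ordered by mean level, Iigp1 was highest in Ch25h-/- cells with LPS (124 CPM), followed by untreated wild-type (98.7 CPM), 25HC (37.8 CPM) and itraconazole (29.3 CPM) with LPS. Next were untreated wild-type cells at rest (10.1 CPM), OSW-1 with LPS (6.70 CPM) and Ch25h-/- cells at rest (6.21 CPM), whose libraries overlap. Itraconazole (2.18 CPM), 25HC (1.62 CPM) and OSW-1 (0.416 CPM) at rest came last. In this order no difference was called between the genotypes within either state, or between 25HC and itraconazole.

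The other IRGs were lower by less. With OSW-1 Irgm1 was at 184, 180 and 177 CPM, where untreated LPS libraries held 362, 402 and 339 CPM. The groups were far apart and the OSW-1 libraries alike, and the log2 fold change was -1.03 ± 0.15 (adjusted p = 1.18e-06). Ifi47 was at 96.9, 99.2 and 105 CPM against 182, 215 and 242 CPM, again without overlap (-1.09 ± 0.18). Irgm2 and Igtp both changed by -0.57, with standard errors of 0.17 and 0.19. All 5 IRGs were thus called lower with OSW-1, and each call held in all 6 leave-outs.

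With itraconazole Irgm1 (-0.45 ± 0.15), Irgm2 (-0.41 ± 0.17) and Ifi47 (-0.57 ± 0.18) were called, beside Iigp1 and Gbp2 (-0.69 ± 0.26). Apart from that of Iigp1, these calls rested on single libraries. Without itraconazole mouse 3 Gbp2 was at -0.41, Irgm1 at -0.30 and Irgm2 at -0.23, none called, and without untreated mouse 2 they were at -0.58, -0.38 and -0.33, none called. Gbp2 also lost its call without untreated mouse 1 (-0.52), and Irgm2 (-0.40) and Ifi47 (-0.46) without untreated mouse 3. With 25HC the 4 IRGs other than Iigp1 were between -0.40 and -0.21 and none was called. Leaving out 25HC mouse 1 brought calls for Irgm1 (-0.46) and Irgm2 (-0.54), leaving out untreated mouse 1 one for Irgm2 (-0.48), and with the mouse as a replicate block Irgm1 passed (-0.34, adjusted p = 0.0462).

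Among the GBPs, Gbp3 was at 421, 384 and 335 CPM with OSW-1 and LPS and at 252, 254 and 141 CPM in untreated cells. Every OSW-1 library was above every untreated one, and the difference of 0.82 ± 0.30 was called (adjusted p = 0.0181). It was not called without untreated mouse 3 (0.59) or OSW-1 mouse 1 (0.74). The row labelled Gbp6 was at 81.7, 86.5 and 109 CPM with OSW-1 against 155, 184 and 123 CPM, without overlap (-0.73 ± 0.24). That call was lost without untreated mouse 2 (-0.59, adjusted p = 0.0561). Gbp2 was at 497, 487 and 514 CPM with OSW-1, inside the wide range of untreated LPS libraries (447 to 903 CPM), and its -0.55 ± 0.26 did not pass (adjusted p = 0.0642). It passed without untreated mouse 3 (-0.80).

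The row labelled Gbp5 differed by 0.45 ± 0.37 and Gbp7 by -0.15 ± 0.25 with OSW-1, neither called. With 25HC the GBPs were at 0.16 to 0.76, none called, and Gbp3 (0.85) and the row labelled Gbp5 (1.06) passed without 25HC mouse 3. With itraconazole the GBPs other than Gbp2 were at -0.43 to 0.04, and Gbp7 passed without itraconazole mouse 1 (-0.67). Absence of a call does not show equal levels, and the 95% interval for the row labelled Gbp5 with 25HC ran from 0.04 to 1.48. That interval uses the normal quantile and is narrower than the edgeR test allows. By that test 0 GBPs had an unadjusted p under 0.05 with 25HC and LPS.

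Summed macrophage markers were at 9881 to 12640 CPM in the OSW-1 libraries with LPS and at 24816 to 36148 CPM in untreated LPS libraries. All 8 were detected in both. With 25HC and itraconazole they were at 17968 to 32407 CPM. Summed B cell markers were at 5.41 to 9.42 CPM in untreated LPS libraries and at 0.161 to 2.00 CPM in those with a compound. Summed stromal markers were at 5.41 to 11.5 CPM and at 1.91 to 4.82 CPM, and in both lists the groups did not overlap. Summed neutrophil markers were at 6.42 to 12.8 CPM in untreated libraries and at 1.53 to 3.89 CPM with 25HC or OSW-1, and those with itraconazole overlapped the untreated ones. The OSW-1 libraries are also those without the even counts. When the even counts of the other libraries were halved, all 7 member calls of OSW-1 with LPS remained. The part of these markers in the differences was not tested.

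Compared directly with LPS present, OSW-1 against 25HC called 5 members lower, where 30.4% of all genes were. Beside Iigp1 these were Gbp2 (-0.73 ± 0.26), the row labelled Gbp6 (-0.93 ± 0.24), Irgm1 (-0.70 ± 0.15) and Ifi47 (-0.72 ± 0.18). The Gbp2 call was lost without 25HC mouse 1 (-0.42) or OSW-1 mouse 2 (-0.71), and Igtp passed without 25HC mouse 3 (-0.55). OSW-1 against itraconazole called 4 lower, where 25.4% of all genes were, and 1 higher, where 23% were. Gbp3 was the higher one (0.92 ± 0.30, but 0.57 and not called without itraconazole mouse 3), and beside Iigp1 the lower ones were Irgm1 (-0.58 ± 0.15), Ifi47 (-0.52 ± 0.18) and the row labelled Gbp6 (-0.78 ± 0.24).

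Ifi47 lost that last call without mouse 1 or 2 of either group (-0.51 to -0.47), and the row labelled Gbp6 without mouse 1 of OSW-1 (-0.70) or of itraconazole (-0.53). The row labelled Gbp5 passed without itraconazole mouse 1 (1.03). 25HC against itraconazole called 1 member, Gbp2, which was higher with 25HC (0.88 ± 0.26, adjusted p = 0.0459), and 2.72% of all genes were called higher. Its call was lost without mouse 1 or 2 of 25HC (0.57 and 0.91) or mouse 2 or 3 of itraconazole (0.97 and 0.59). The row labelled Gbp5 (1.31) and Gbp7 (0.84) passed without 25HC mouse 3.

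The fold response to LPS was compared between treated and untreated cells. LPS raised all 10 members after 25HC, after itraconazole, after OSW-1 and in Ch25h-/- cells, where 30.5, 33.4, 34.7 and 28% of all genes were called higher. The median log2 fold change of the GBPs was 5.84 after 25HC, 4.97 after itraconazole and 6.04 after OSW-1, beside 4.09 in untreated cells. For the IRGs it was 2.67, 2.25 and 2.84, beside 1.61. The row labelled Gbp5 had the steepest response of all, 8.26 ± 0.55 after OSW-1, from 0.697, 0.683 and 1.12 CPM to 255, 268 and 234 CPM.

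The difference between the LPS response of treated and of untreated cells was tested directly as an interaction. After 25HC it was higher in 6 of 10 members, where 5.21% of all genes were, after itraconazole in 4, where 12.1% were, and after OSW-1 in 9, where 23.2% were. All 5 GBPs were among those called after 25HC and after OSW-1, and of the IRGs 1 and 4 were. Such a difference is also the compound's change with LPS minus its change at rest. At rest each compound lowered all 10 members. With LPS 0, 0 and 1 members were called higher with 25HC, itraconazole and OSW-1 than in untreated cells. Gbp7 had differences of 2.63 ± 0.37, 1.75 ± 0.37 and 3.59 ± 0.39 (adjusted p = 0.000127, 0.00138 and 8.92e-08). Gbp3 had 2.27 ± 0.44, 1.37 ± 0.44 and 2.76 ± 0.45. Iigp1, whose level fell in both states, had no called difference, at 1.26 ± 0.54, 0.43 ± 0.52 and 0.71 ± 0.67. Without untreated unstimulated mouse 3 its values were 0.57, -0.27 and 0.02.

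All 6 calls after 25HC and all 9 after OSW-1 held in every leave-out. After 25HC, Irgm2 was at the edge (0.73 ± 0.24, adjusted p = 0.05, and 0.0452 with the mouse as a replicate block). It also passed without untreated unstimulated mouse 1 (0.82), and without 25HC mouse 3 with LPS the calls came to 9, with Irgm1 (0.69), Irgm2 (0.86) and Igtp (0.95). Iigp1 passed without unstimulated 25HC mouse 3 (1.80). After itraconazole the row labelled Gbp6 (1.56 ± 0.40) and Gbp7 held in every leave-out. Gbp3 was lost in 5 of 12 leave-outs (untreated mouse 3 in either state, itraconazole mouse 3 unstimulated, itraconazole mouse 1 or 2 with LPS), with a lowest value of 1.05. Irgm2 (0.76 ± 0.24) was lost in 6 of 12, untreated mouse 3 unstimulated, untreated mouse 1 with LPS, and itraconazole mice 2 and 3 unstimulated and 1 and 2 with LPS, with a lowest value of 0.63.

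Calls were also gained for itraconazole. Leaving out its mouse 3 with LPS brought the members called to 9, with Gbp2 (1.16), the row labelled Gbp5 (1.78), Irgm1 (0.63), Igtp (0.75) and Ifi47 (0.73). Without its unstimulated mouse 1 the row labelled Gbp5 (1.86), Irgm1 (0.66), Igtp (0.78) and Ifi47 (0.85) passed. Ifi47 also passed without untreated mouse 1 unstimulated (0.77) or mouse 3 with LPS (0.74). The number of members with a called difference after itraconazole was thus between 2 and 9 across leave-outs.

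**Figure D3:**
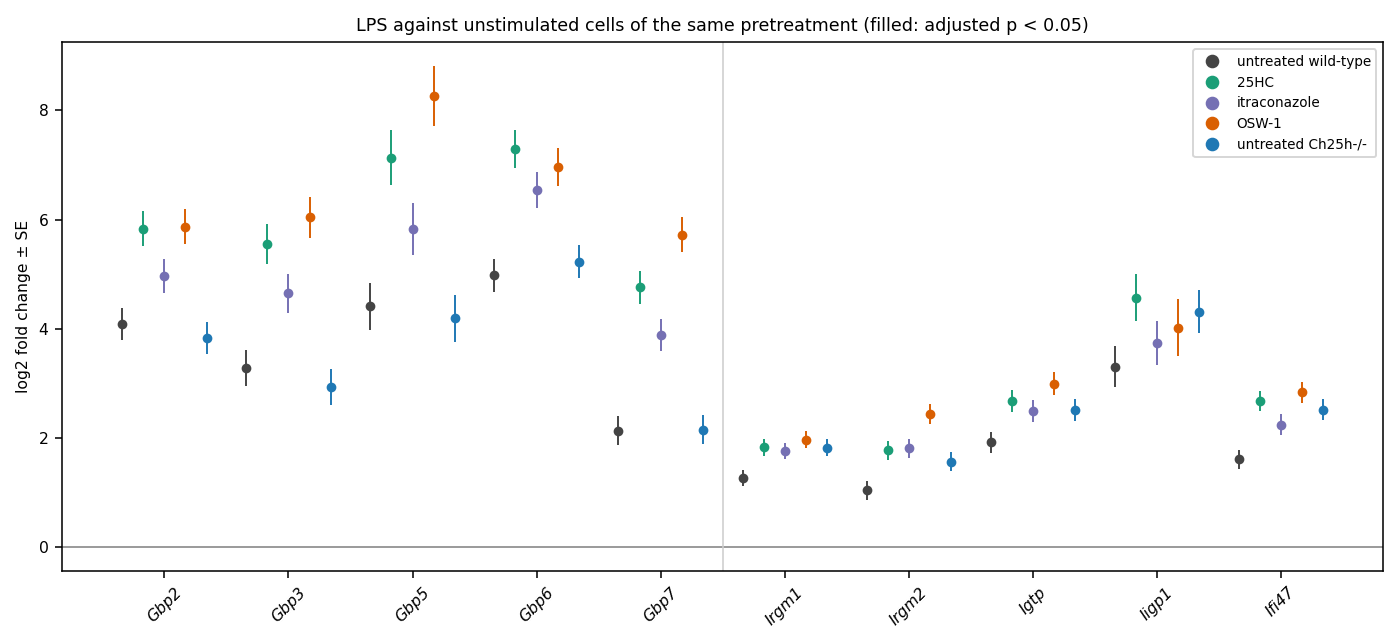
Log2 fold change with standard error of LPS against unstimulated cells for each member, in untreated wild-type, 25HC, itraconazole, OSW-1 and untreated Ch25h-/- macrophages. All 50 points are above 0 and called. For the GBPs the compound points lie above the untreated wild-type and Ch25h-/- points, and for Gbp7 after OSW-1 the value is 5.73.

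Cells without Ch25h cannot make 25HC through that enzyme. At rest no difference between Ch25h-/- and wild-type was called for any member by edgeR (0 called, 3 with an unadjusted p under 0.05, 0 by DESeq2), and 0.00759% of all genes were called. Log2 differences ran from -0.68 to -0.17. Ifi47 was at 41.0, 57.1 and 39.8 CPM in Ch25h-/- and 57.1, 76.8 and 76.3 CPM in wild-type libraries, and Irgm1 at 95.9, 130 and 98.3 against 141, 168 and 149 CPM. These genes and Igtp were lower in every Ch25h-/- library, the Ifi47 groups by a narrow gap, while 9.85% of all genes showed that separation. The differences of -0.61 ± 0.18 for Ifi47 and -0.50 ± 0.15 for Irgm1 both had an adjusted p of 0.177. Summed stromal markers also separated the genotypes, at 1.61 to 3.28 CPM in wild-type and 4.83 to 11.4 CPM in Ch25h-/- libraries at rest, and at 5.41 to 11.5 and 12.4 to 23.9 CPM with LPS. Their part was not tested. For Iigp1 the -0.68 ± 0.37 became 0.01 without the wild-type mouse 3.

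With LPS 0 members were called (0 with an unadjusted p under 0.05, 0 by DESeq2) and 0.190% of all genes were. The GBPs were at -0.66 to -0.15 and the IRGs at 0.05 to 0.33. Gbp2 was at 461, 546 and 511 CPM in Ch25h-/- libraries, within the wild-type range. Here 1 wild-type library, mouse 3, weighed heavily. Without it Gbp2 was called (-0.78, adjusted p = 0.0360), and the number of all genes called went from 25 to 2368. Without all mouse 3 libraries, a choice made after seeing the data, 3873 genes and 5 members were called: Gbp2 (-0.79), Gbp3 (-0.70), the row labelled Gbp5 (-0.88) and Gbp7 (-0.34) lower and Ifi47 (0.48) higher.

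No difference in the LPS response between genotypes was called for any member (0 called by edgeR, 4 with an unadjusted p under 0.05, 0 by DESeq2). The IRG differences were 0.52 to 1.01 and the GBP differences -0.35 to 0.25, and 0% of all genes were called. Without wild-type mouse 3 with LPS, Ifi47 was called (1.02, adjusted p = 0.0298). Ch25h, the deleted gene, was itself not called between genotypes by edgeR. It was at -4.11 ± 0.98 at rest and -3.66 ± 1.05 with LPS (adjusted p = 0.102 and 0.124). Absence of a call between genotypes therefore does not show equal levels or responses. Genotype coincides with the pattern of even counts, so the genotypes and the counting cannot be told apart in these comparisons.

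Wild-type mouse 3 was the lowest library in LPS groups for several members, and the share of all genes lowest in it was not counted. Gbp3, Gbp7, Irgm1, Igtp and the row labelled Gbp5 were lowest in mouse 3 in 4 of 4 wild-type LPS groups, Gbp2, Irgm2 and the row labelled Gbp6 in 3 of 4. Iigp1 and Ifi47 were lowest in it in 2 of 4. Summed over the 5 GBPs, untreated LPS libraries held 1683, 1691 and 958 CPM, those with 25HC 2496, 1811 and 1163 CPM and those with itraconazole 1450, 1243 and 563 CPM. OSW-1 libraries were close together at 1399, 1372 and 1335 CPM. In untreated unstimulated cells mouse 3 was instead the highest, with GBP sums of 93.5, 111 and 141 CPM in mice 1, 2 and 3.

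The counts of related genes below are read beside the shares of all genes tested. Higher calls were made for 15.9, 14.3 and 20% of all genes with 25HC, itraconazole and OSW-1 at rest, and for 20.8, 26.4 and 34.3% with LPS. Lower calls were made for 12.8, 12.3 and 17.2% at rest and for 21, 27.9 and 37% with LPS. LPS itself raised 30.7% and lowered 30.1%. Of 15 further GBP, IRG and related GTPase genes listed, Gvin1 and Gm4070 among the related ones, 10 could be tested. LPS raised 9 of them (median 1.64), among them Gbp4 (4.29 ± 0.44) and the effector IRGs Tgtp1 (2.97 ± 0.32) and Tgtp2 (2.70 ± 0.28). At rest 25HC lowered 8, itraconazole 8 and OSW-1 9 (with medians from -2.48 to -1.48). Gbp9 fell by 1.33 ± 0.23, 1.52 ± 0.24 and 2.62 ± 0.25, and the IRG gene Gm4951 by 2.54 ± 0.30 with 25HC and 2.05 ± 0.28 with itraconazole. With LPS 3 were lower and 1 higher with 25HC, and 4 lower and 1 higher with either of the other compounds.

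Gm4951, like Iigp1, was low with OSW-1 and LPS. It was at 67.3, 81.9 and 69.1 CPM in untreated LPS libraries and at 7.99, 8.60 and 8.70 CPM with OSW-1 and LPS, far below and without overlap (-3.11 ± 0.28). F830016B08Rik, an IRG gene on chromosome 18 like Iigp1 and Gm4951, was at 6.02, 9.30 and 8.81 CPM against 0.482, 0.748 and 0.757 CPM (-3.59 ± 0.41). Tgtp1 and Tgtp2 were lower by less (-1.66 ± 0.30 and -1.63 ± 0.27), and Gbp4 did not pass (-0.13 ± 0.36). Irgq, an IRG relative, went the other way with LPS, by 1.11 ± 0.12 with 25HC and 1.96 ± 0.12 with OSW-1. Iigp1 shared 1.69% of its 50-base stretches with other genes, most of these with Gm4951.

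Of 16 interferon ligands, receptors and signalling genes listed, 15 could be tested and LPS raised 14 of them (median 1.29). Ifnb1, interferon beta, had no count in untreated unstimulated wild-type libraries and 54, 38 and 6 counts after LPS, the fewest in mouse 3. It had 10, 8 and 4 counts with 25HC, 8, 4 and 4 with itraconazole and 0, 0 and 0 with OSW-1. The differences passed with 25HC (-2.15 ± 0.73, adjusted p = 0.0273) and itraconazole (-2.63 ± 0.76, adjusted p = 0.00851). With OSW-1 Ifnb1 was at least 26.7-fold lower, set against a floor of 3 counts over the group, which covers counting error only. Ifng, interferon gamma, was too low to be tested.

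Irf7, which amplifies interferon production, was at 2971, 2657 and 2017 CPM in untreated LPS libraries and at 398, 451 and 552 CPM with OSW-1 and LPS. The OSW-1 libraries were far lower, without overlap (-2.45 ± 0.26, adjusted p = 7.54e-09). Irf7 was also lower with itraconazole (-0.72 ± 0.24), and with 25HC it was at -0.44 ± 0.24, not called. Stat2 was lower with itraconazole (-0.58 ± 0.19) and OSW-1 (-1.32 ± 0.19), and at -0.28 ± 0.19 with 25HC, not called. Irf1, a factor that both interferons and LPS induce, was at 236, 210 and 151 CPM with OSW-1 and at 182, 191 and 166 CPM in untreated LPS libraries. These groups overlapped, and Irf1 was not called with any compound (-0.14, -0.34 and 0.15).

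At rest the same genes were lower with every compound. Stat2 changed by -1.23 ± 0.19, -1.05 ± 0.19 and -1.82 ± 0.19, Irf7 by -1.42 ± 0.25, -1.09 ± 0.25 and -2.30 ± 0.26 and Irf1 by -0.74 ± 0.18, -0.72 ± 0.18 and -0.96 ± 0.18. Of the 15 tested, 6 were lower with each compound, and 2, 2 and 5 higher. With LPS 10 were lower with OSW-1 and 1 higher, with Ifnar1 (-1.33 ± 0.12) and Ifnar2 (-1.37 ± 0.12), the chains of the type I interferon receptor, among the lower. With 25HC 4 were lower and 3 higher, and with itraconazole 7 and 1.

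**Figure D4:**
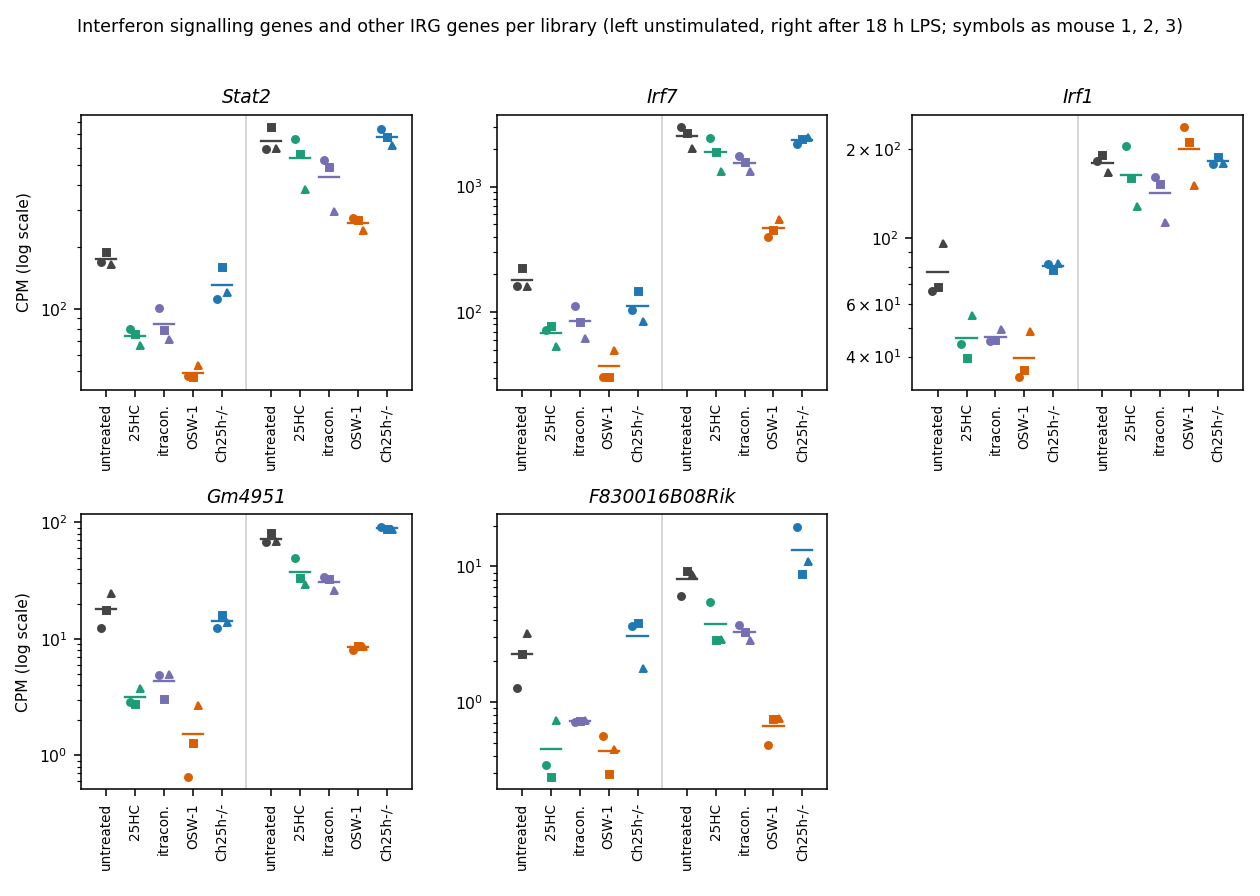
Levels of Stat2, Irf7, Irf1 and of the IRG genes Gm4951 and F830016B08Rik in every library, in CPM on a log axis, with groups and symbols as in the plot of member levels. OSW-1 libraries with LPS lie below all other LPS libraries for every gene shown except Irf1.

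Partners of the GTPases were listed by role. Of 10 inflammasome and pyroptosis genes, through which GBPs act on cytosolic bacteria, LPS raised 8, among them Casp4 (1.92 ± 0.19) and the pore former Gsdmd (1.49 ± 0.09). With OSW-1 and LPS 6 were lower and 2 higher: the adaptor Pycard fell by 4.19 ± 0.28 and Gsdmd by 1.00 ± 0.09, while the sensor Nlrp3 rose by 3.02 ± 0.19 and Il1b by 2.84 ± 0.34. With 25HC 4 were lower and 2 higher and with itraconazole 5 and 2. Casp4 with LPS was not called with OSW-1 (-0.08 ± 0.18) or with 25HC (0.19 ± 0.18). At rest 2, 4 and 5 were lower and 1, 1 and 2 higher, of 10 each time, and several of these counts lie near the shares of all genes. Of 16 genes of the ATG conjugation and ubiquitin systems that bring IRGs and GBPs to vacuoles, LPS raised 9 and lowered 3, with Atg5 at 1.62 ± 0.11.

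With OSW-1 and LPS 7 of these 16 were lower and 2 higher, with Atg5 at -1.09 ± 0.11, the galectin Lgals9 at -1.45 ± 0.17 and the autophagy receptor Sqstm1 at 2.54 ± 0.31. With 25HC 4 were lower and 5 higher, and with itraconazole 5 and 3. At rest 3, 6 and 4 were lower and 1, 1 and 2 higher, with Trim21 at -0.77 ± 0.13 with 25HC and -0.75 ± 0.13 with itraconazole. Several of these counts, too, lie near the shares of all genes. Of 5 enzymes that attach the CaaX lipid anchor or act on the protein after it, 3 were higher and none lower with each compound and LPS. Rce1, a protease that acts after the lipid is attached, was higher by 0.41 ± 0.09, 0.67 ± 0.09 and 0.99 ± 0.09. At rest 3, 1 and 1 were higher, and Fnta was lower with OSW-1 (-0.16 ± 0.06).

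Across the 10 group means of log2 CPM the members moved alike. Each member's Pearson r with the mean of the other 9 was between 0.906 (Iigp1) and 0.995 (Igtp). Pairs within the GBPs had a median r of 0.98 (0.960 to 0.996) and pairs within the IRGs 0.98 (0.937 to 0.996). Mixed pairs had a median of 0.94, and the lowest was Gbp3 with Iigp1 at 0.812. Of 10048 genes outside the GBP and IRG lists with an average log2 CPM of at least 2, the 6 most like the members' mean profile were Parp14 (0.997), Zbp1 (0.997), Ifit1 (0.997), Xaf1 (0.996), Ms4a6c (0.995) and Herc6 (0.994). These correlations rest on 10 groups that share mice and library preparation, are dominated by LPS, and are given without a test.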

How the data were processed

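RNA of macrophages from 3 wild-type and 3 Ch25h-/- mice was sequenced as 30 stranded polyA libraries. The authors deposited raw gene counts. Per the submitters' processing notes the tools were FastQC 0.11.9, GSNAP, featureCounts, Subread 1.5.2 and edgeR 3.26.8, with GRCm38/mm10. The annotation release and the settings for strand and for reads of several loci are not given in the sources used here, so paralogs and overlapping genes may share counts. Of the 30538 genes, 30126 identifiers are in GENCODE vM21 and 28837 have the same symbol there.

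The deposited counts were scaled by TMM and filtered with filterByExpr (minimum count 10), which kept 13173 genes. Genes without a count numbered 11735. One edgeR 4.0.16 quasi-likelihood fit (limma 3.58.1, R 4.3.3) held all 10 groups of 3, with 23 comparisons, each adjusted by Benjamini-Hochberg over all genes tested. Standard errors were derived from each fold change and its F statistic (|log2 fold change|/√F), and 95% intervals from these by the normal quantile. CPM uses TMM library sizes, and log2 CPM a prior count of 2. Ratios in the text are fitted folds. The procedure was checked on simulated data. These were drawn without a mouse effect and without the even-count pattern, so the check cannot show how the test behaves under either. Promoter windows came from RefSeq.

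Alternatives were DESeq2 1.42.0 size factors and its test, no filter, the mouse as a replicate block, the compared groups alone, halved even counts, each library left out, and, chosen after seeing the data, all mouse 3 libraries left out. The labels name the mouse, so equal numbers within a genotype are the same animal. Once each group's mean was subtracted, a library's correlations with libraries of other groups were averaged by mouse. The average was highest for its own mouse in 24 of 24 wild-type and 6 of 6 Ch25h-/- cases. Pairs of the same mouse had a median r of 0.0865 and 0.0906, and 36 of 84 and 1 of 3 were over 0.1. Libraries of a mouse were taken as independent without the block.

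The members, the gene lists, the tests and the rule for genes named (all members, and of each list up to 5 genes of smallest p per comparison plus Ifnb1, Ifng, Irf1 and Ch25h, with 1 gene not reported here) were chosen with earlier results of these data known. Genes of a list named for another comparison are shown there too. Summaries and plots used matplotlib 3.10.9, numpy 2.4.6 and pandas 2.3.3 under Python 3.11.15.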

Additional observations from a re-analysis of the deposited data

Results flagged for a closer look

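The LPS response differed between compound-treated and untreated wild-type cells for 6 members with 25HC, 4 with itraconazole and 9 with OSW-1, by the interaction test in edgeR. Each value is the log2 response with the compound minus the log2 response without it, and all 19 are above 0. It is also the compound's change with LPS minus its change at rest, where all 10 members were lower. With LPS the members called higher than in untreated cells were 0 with 25HC, 0 with itraconazole and 1 with OSW-1. The values are thus larger fold responses from lower starting levels. For Gbp3 with OSW-1 the level reached with LPS was also called higher (0.82). With 25HC and LPS the 5 GBPs were at 0.16 to 0.76, none called, which does not show equal levels. With 25HC the response differences were 1.75 for Gbp2, 2.27 for Gbp3, 2.72 for the row labelled Gbp5, 2.32 for the row labelled Gbp6, 2.63 for Gbp7 and 1.07 for Ifi47. With itraconazole they were 1.37 for Gbp3, 1.56 for the row labelled Gbp6, 1.75 for Gbp7 and 0.76 for Irgm2. With OSW-1 they were 1.78 for Gbp2, 2.76 for Gbp3, 3.84 for the row labelled Gbp5, 1.98 for the row labelled Gbp6, 3.59 for Gbp7, 0.70 for Irgm1, 1.40 for Irgm2, 1.07 for Igtp and 1.23 for Ifi47. The compounds share the untreated libraries of both states, so the 3 sets are not independent.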

How the results depend on the processing

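No member value changed sign across a call under any alternative run. Of member values under settings other than leave-outs, 1524 kept their side of the threshold, 13 lost the call and 53 gained one. For leave-outs these were 1534, 57 and 29. The LPS comparisons and those of 25HC and OSW-1 at rest called 10 members in every setting run, and itraconazole at rest 9 to 10 in leave-outs.

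The number of members called moved by over 1.5 times, or from 0, as follows. With all mouse 3 libraries left out it was 4 for 25HC against itraconazole with LPS (1 in the fit as reported), 4 for 25HC with LPS (1), 1 and 5 for Ch25h-/- against wild-type at rest and with LPS (0 and 0), 7 and 8 for OSW-1 against 25HC at rest and with LPS (4 and 5) and 3 for the genotype difference in response (0). With the compared groups alone it was 0 for 25HC against itraconazole with LPS, 7 for OSW-1 against 25HC at rest, 3 for OSW-1 against itraconazole with LPS (5), 2 for itraconazole with LPS (5) and 2 for its response difference (4). Without the filter it was 0 for 25HC against itraconazole with LPS and 3 for itraconazole with LPS. The DESeq2 test gave 2 for 25HC with LPS and 7 for OSW-1 against 25HC at rest. Within 1.5 times, the DESeq2 test gave 9 for OSW-1 against itraconazole at rest (6), 8 for OSW-1 with LPS (7) and 8 for the 25HC response difference (6), and leaving out mouse 3 gave 9 for each of these 3, 6 for the itraconazole response difference (4) and 6 for OSW-1 against itraconazole with LPS (5). The mouse as a replicate block gave 2 for 25HC with LPS (the added gene was Irgm1) and 7 for the 25HC response difference (the added gene was Irgm2), and it changed no other member's call. Comparisons between genotypes within a state had no blocked fit, because mice are nested in genotype.

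Leave-outs gave 0 to 3 members for 25HC against itraconazole with LPS, 1 to 3 for 25HC with LPS, 0 to 1 for Ch25h-/- against wild-type with LPS and for the genotype difference in response, 2 to 6 for itraconazole with LPS, 1 to 3 for OSW-1 against 25HC at rest and 4 to 6 with LPS, 3 to 6 for OSW-1 against itraconazole at rest and 3 to 5 with LPS, 6 to 7 for OSW-1 with LPS, 6 to 9 for the 25HC and 2 to 9 for the itraconazole response difference. The OSW-1 response difference called 9 in each.

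Counts over all genes moved by over 1.5 times as follows. Ch25h-/- against wild-type called 1 gene at rest, and 5 with DESeq2 size factors, 129 with the DESeq2 test, 3 without the filter, 0 with the groups alone, 6 with even counts halved, 885 without mouse 3 and up to 358 in leave-outs. With LPS it called 25, and 230 with the DESeq2 test, 0 alone, 39 halved, 3873 without mouse 3 and 0 to 2368 in leave-outs. Its response difference called 0, and 1 with size factors, 8 with the DESeq2 test, 2007 without mouse 3 and up to 709 in leave-outs. For 25HC against itraconazole at rest 31 became 111 (DESeq2 test), 67 (block), 99 (alone) and 75 (without mouse 3), and 19 at the lowest leave-out. With LPS 847 became 1291 (DESeq2 test), 0 (alone), 2038 (without mouse 3) and 102 to 1288 (leave-outs). For OSW-1 at rest, 357 against 25HC became 714 (DESeq2 test), 609 (block), 1162 (without mouse 3) and 83 (lowest leave-out), and 834 against itraconazole became 1313 (DESeq2 test), 1952 (alone), 1739 (without mouse 3) and 167 (lowest leave-out). With the groups alone 25HC with LPS went from 5502 to 3215, itraconazole with LPS from 7146 to 4570, and the response differences from 1582 to 906 (25HC) and from 3461 to 2292 (itraconazole). The 25HC response difference was 2765 without mouse 3 and 879 at the lowest leave-out, and at rest the lowest leave-outs were 2343 of 3779 for 25HC and 2241 of 3515 for itraconazole. The cause of these shifts was not tested. Limits are 3 mice per group, counts shared among paralogs, and levels near 1 CPM at rest with OSW-1 for Iigp1 and the rows labelled Gbp5 and Gbp6.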
